A study of Mus musculus with 12 samples.

Results

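This account covers 30 mouse genes that make cholesterol or that sense, move and esterify it, measured by RNA-seq in small intestine with and without the corepressor NCoR1. The members were chosen as a fixed list of symbols, looked up in the adult gene table and matched to the neonate table by Entrez identifier. All 30 of 30 were found among the 23319 genes that both tables hold, with Msmo1 listed under its older symbol Sc4mol. The groups were KO adults, WT adults, KO neonates and WT neonates, where KO stands for the label NCoR1 intestinal KO and WT for wild type. Adults were 10 weeks old and neonates 12 days old, all of strain C57BL/6, and each group held 3 libraries, each made from the pooled RNA of 2 mice. The whole small intestine was pulverized, so the RNA comes from epithelium, muscle, stroma and immune cells together. The design text names the mice F/FUN and DIECUN without explaining the names, and the promoter behind the intestinal deletion, or any further allele that all groups share, is not stated by the labels used. The series addresses the effect of NCoR1 on the intestinal transcriptome at these ages.

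Cells make cholesterol from acetyl-CoA by way of mevalonate, farnesyl pyrophosphate, squalene and lanosterol, and the small intestine is among the organs that make the most. The pathway is controlled by SREBP-2, the product of Srebf2, a transcription factor held in the membrane of the endoplasmic reticulum. When sterol is scarce, SCAP carries SREBP-2 to the Golgi, where the proteases MBTPS1 and MBTPS2 cut it free and its active fragment turns on nearly every gene of synthesis. When sterol is plentiful, INSIG1 and INSIG2 hold SCAP back, and Insig1 is itself switched on by SREBPs. NCoR1 helps nuclear receptors, among them the sterol-sensing liver X receptors (LXR), to repress their target genes.

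The reads recovered in genes, in units of 1e+06, numbered 11.9 to 13.1 per library for KO adults, 9.78 to 11.8 for WT adults, 5.93 to 8.31 for KO neonates, and 8.44 to 9.34 for WT neonates. Levels are given as counts per 1e+06 counts in genes (CPM) and a difference is the mean of log2(CPM + 1) in KO minus that in WT, a scale that shrinks the changes of weakly expressed genes. Ncor1 stood at 159.3, 167.8 and 163.9 CPM in KO adults, against 239.5, 252.2 and 244.7 CPM in WT adults, and at 244.9, 213.3 and 234.5 CPM in KO neonates, against 446.9, 459.3 and 451.4 CPM in WT neonates. The groups did not overlap at either age, and RNA of Ncor1 remained in every KO library of this mixed tissue. The labels used do not say which exons the deletion removes. A list of 9 enterocyte markers was abundant in all libraries, with sums of 43200 to 49200 CPM for KO adults, 39900 to 44700 CPM for WT adults, 76100 to 78800 CPM for KO neonates and 69800 to 73600 CPM for WT neonates. No list of markers for another cell type was at 0 in every library, so fewer cells of a type and less RNA per cell cannot be told apart in what follows. Fibroblast markers summed lower in every KO library than in every WT library at both ages. They stood at 364 to 378 CPM in KO adults and 456 to 609 CPM in WT adults. In neonates they stood at 1820 to 2010 CPM in KO and 2020 to 2620 CPM in WT. Of these, 3 of 7 were called lower in adults and 4 of 7 in neonates, where 13.9% and 16.0% of tested genes were. With the TMM scaling described below, 3 of 7 were called lower in adults and 0 of 7 in neonates (6.77% and 7.21% of tested genes). The marker sums are without that scaling. Sums of enteroendocrine and of enteric neuron and glia markers were also lower in every KO library at both ages, and liver markers summed to 290.0 to 319 CPM in KO neonates and 139 to 164 CPM in WT neonates.

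The promoters of 4 members are shown because these genes bracket the responses described below: Insig1 had the largest rise of the members, Lss and Hsd17b7 are enzymes whose response differed between ages, and Mbtps2 was the only member called lower in KO adults. The sequences are the 250 bases before the annotated start of each gene, read 5′ to 3′ on the gene's strand from mouse build mm9. They lie at chr5:28397702-28397951 (plus strand) for Insig1, chr10:75994122-75994371 (plus strand) for Lss, chr1:171899337-171899586 (minus strand) for Hsd17b7 and chrX:154036648-154036897 (minus strand) for Mbtps2. Capitals mark the CCAAT box, bound by the factor NF-Y that works beside SREBPs at sterol-regulated promoters, which reads ATTGG where it lies on the other strand.
Insig1: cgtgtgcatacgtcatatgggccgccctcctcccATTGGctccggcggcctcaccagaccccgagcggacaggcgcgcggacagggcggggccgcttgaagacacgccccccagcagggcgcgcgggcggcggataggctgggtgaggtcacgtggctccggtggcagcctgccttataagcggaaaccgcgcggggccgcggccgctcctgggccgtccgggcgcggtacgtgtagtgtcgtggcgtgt
Lss: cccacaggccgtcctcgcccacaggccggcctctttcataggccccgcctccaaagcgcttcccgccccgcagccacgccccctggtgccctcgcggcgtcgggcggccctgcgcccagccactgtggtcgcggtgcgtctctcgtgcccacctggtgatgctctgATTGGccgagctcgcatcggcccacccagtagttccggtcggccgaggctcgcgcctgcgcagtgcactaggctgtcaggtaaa
Hsd17b7: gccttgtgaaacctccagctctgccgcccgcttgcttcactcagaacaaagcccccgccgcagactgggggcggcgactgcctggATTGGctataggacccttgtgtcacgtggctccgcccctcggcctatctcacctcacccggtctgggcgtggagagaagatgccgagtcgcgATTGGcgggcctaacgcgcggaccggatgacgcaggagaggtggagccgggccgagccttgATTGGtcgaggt
Mbtps2: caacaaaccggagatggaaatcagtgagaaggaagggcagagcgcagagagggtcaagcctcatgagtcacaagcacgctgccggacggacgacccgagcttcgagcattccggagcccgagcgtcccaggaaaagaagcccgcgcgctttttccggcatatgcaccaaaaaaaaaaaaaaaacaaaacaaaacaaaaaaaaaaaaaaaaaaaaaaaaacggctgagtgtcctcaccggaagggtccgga
The box appears once in Insig1, at position -216 counted from the start, once in Lss, at -84, and in Hsd17b7 at -165, -73 and -12, all on the other strand, and Mbtps2 has none in this window. Searched on both strands, the letters CCAAT were present in 20 of 29 member promoters (69.0%), against 35.3% of all 23250 promoters of the same length and 35.3% of the 14588 whose genes were tested for a difference between ages. The GC box, GGGCGG, was present in 23 of 29 (79.3%), against 42.8% of all promoters and 57.7% of those of tested genes. One strict spelling of the sterol regulatory element, TCACNCCAC, was in 0 of 29 windows, against 0.998% of all promoters, which says only that these letters are not in these 250 bases. Such matches are a description of sequence and not evidence of binding.

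In adults, the genes of cholesterol synthesis and sterol sensing that differed without NCoR1 were higher, with a single exception. Of the 29 members that passed the filter on low values, 10 were called higher and 1 lower in KO adults by limma at a Benjamini-Hochberg adjusted p under 0.05, where 5.5% of the 13463 tested genes were called higher and 13.9% lower. Those higher were Pmvk, Fdps, Fdft1, Lss, Nsdhl, Hsd17b7, Sc5d, Insig1, Insig2 and Mbtps1, and the member called lower was Mbtps2. The members had a median log2 difference of 0.27, against -0.11 over all tested genes, and with TMM scaling, which centres the libraries on genes that differ little, the medians were 0.38 and -0.01 and the calls 11 higher, with Tm7sf2 added, and 1 lower (9.28% and 6.77% of all genes). In 12 of 29 members all KO adults lay above all WT adults, as in 10.4% of tested genes, and in 2 they lay below, as in 27.8%. The 10 and 1 calls became 3 and 0 without KO adults 3, 4 and 1 without KO adults 2, and 4 and 1 without WT adults 1. Paneth markers were lower in KO adults, at a summed 5930 to 7330 CPM against 9510 to 11100 CPM in WT adults with 3 of 4 called lower, while no marker of enterocytes was called lower and 3 of 9 were called higher. The part of these cell markers in the adult counts was not tested.

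In neonates the same genes stood slightly below their WT level, close to the shift of the transcriptome as a whole. Limma called 2 members higher and 9 lower in KO neonates, where 5.21% of the 14215 tested genes were called higher and 16.0% lower. With TMM scaling the split was 2 higher and 1 lower, against 9.43% higher and 7.21% lower over all genes, and edgeR and DESeq2 on the recovered reads also gave 2 and 1. The members' median was -0.14, against -0.11 over all tested genes, and -0.04 against -0.01 with TMM scaling. The calls that stood with TMM scaling were Insig1 and Soat2, both higher, and Dhcr7, lower. On the deposited RPKM, a level per length of gene, 0 members were called higher and 8 lower, so that Insig1 and Soat2 were not called there. All tested genes stood lower on RPKM too, with a median of -0.185, against -0.219 for the members. RPKM also rests on another library total than CPM. Reads in genes made up 51.7%, 57.8% and 53.4% of it in KO neonates 1, 2 and 3, and 56.5% to 57.6% in WT neonates. The part of that total in the RPKM calls was not tested. Besides Dhcr7, the members called lower on CPM without TMM scaling were Cyp51, Hsd17b7, Scap, Srebf2, Mbtps1, Mbtps2, Npc1 and Soat1. In 12 of 29 members all KO neonates lay below all WT neonates, as in 28.3% of tested genes, and in 1 they lay above, as in 8.62%. Without WT neonates 2 the counts fell to 1 higher and 3 lower, and without WT neonates 1 to 1 and 4. Without KO neonates 3 they were 2 and 4, and without KO neonates 1 they were 1 and 6. Enterocyte markers were higher in all KO neonates and 7 of 9 were called higher and 1 lower, while myeloid markers summed to 184 to 222 CPM in KO neonates, against 279 to 320 CPM in WT neonates, with 4 of 6 called lower. Crypt and proliferation markers summed to 872 to 895 CPM in KO neonates, against 939 to 1010 CPM in WT neonates, with 3 of 8 called lower. With TMM scaling 1 of 6 myeloid and 2 of 8 crypt and proliferation markers were called lower, and 8 of 9 enterocyte markers higher. Their part in the neonate counts was not tested.

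The response to the knockout differed between the ages. When limma was fitted to all 4 groups together, the adult KO effect minus the neonate effect was called above 0 for 8 of 29 members. These were Pmvk, Lss, Nsdhl, Hsd17b7, Dhcr7, Insig1, Srebf2 and Mbtps1. Of the 14588 tested genes 3.02% were called in that direction and 2.44% in the other. The sign counts here, so a gene lower in KO neonates and little changed in KO adults is included, as with Dhcr7 (-0.68 in neonates and -0.03 in adults). By limma 0 members were called in the other direction, and also 0 at an unadjusted p under 0.05 and 0 by edgeR or DESeq2. The difference was above 0 in 24 of 29 members, with a median of 0.41 against 0.00 over all tested genes, and 18 of 29 stood above 0 in adults and below 0 in neonates (24 and 15 with TMM scaling). Over all tested genes the difference was above 0 in 50.4% (47.6% with TMM scaling). The KO effect was above 0 in 32.9% of genes in adults and 28.7% in neonates (48.0% and 47.9% with TMM scaling). The share of all genes with both signs together was not taken. The count of 8 was 7 with TMM scaling (where 2.48% of all genes were called in that direction and 2.6% in the other), 5 with edgeR and 8 with DESeq2, and it ranged from 3 without KO adults 3 to 13 without KO adults 1. Enterocyte markers went the other way, with 0 of 9 called higher and 3 of 9 called lower for the same difference by limma. With TMM scaling 2 of 9 were called lower, and 1 of 9 by edgeR. No other marker list had more than 1 gene called by limma.

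**Figure D1:**
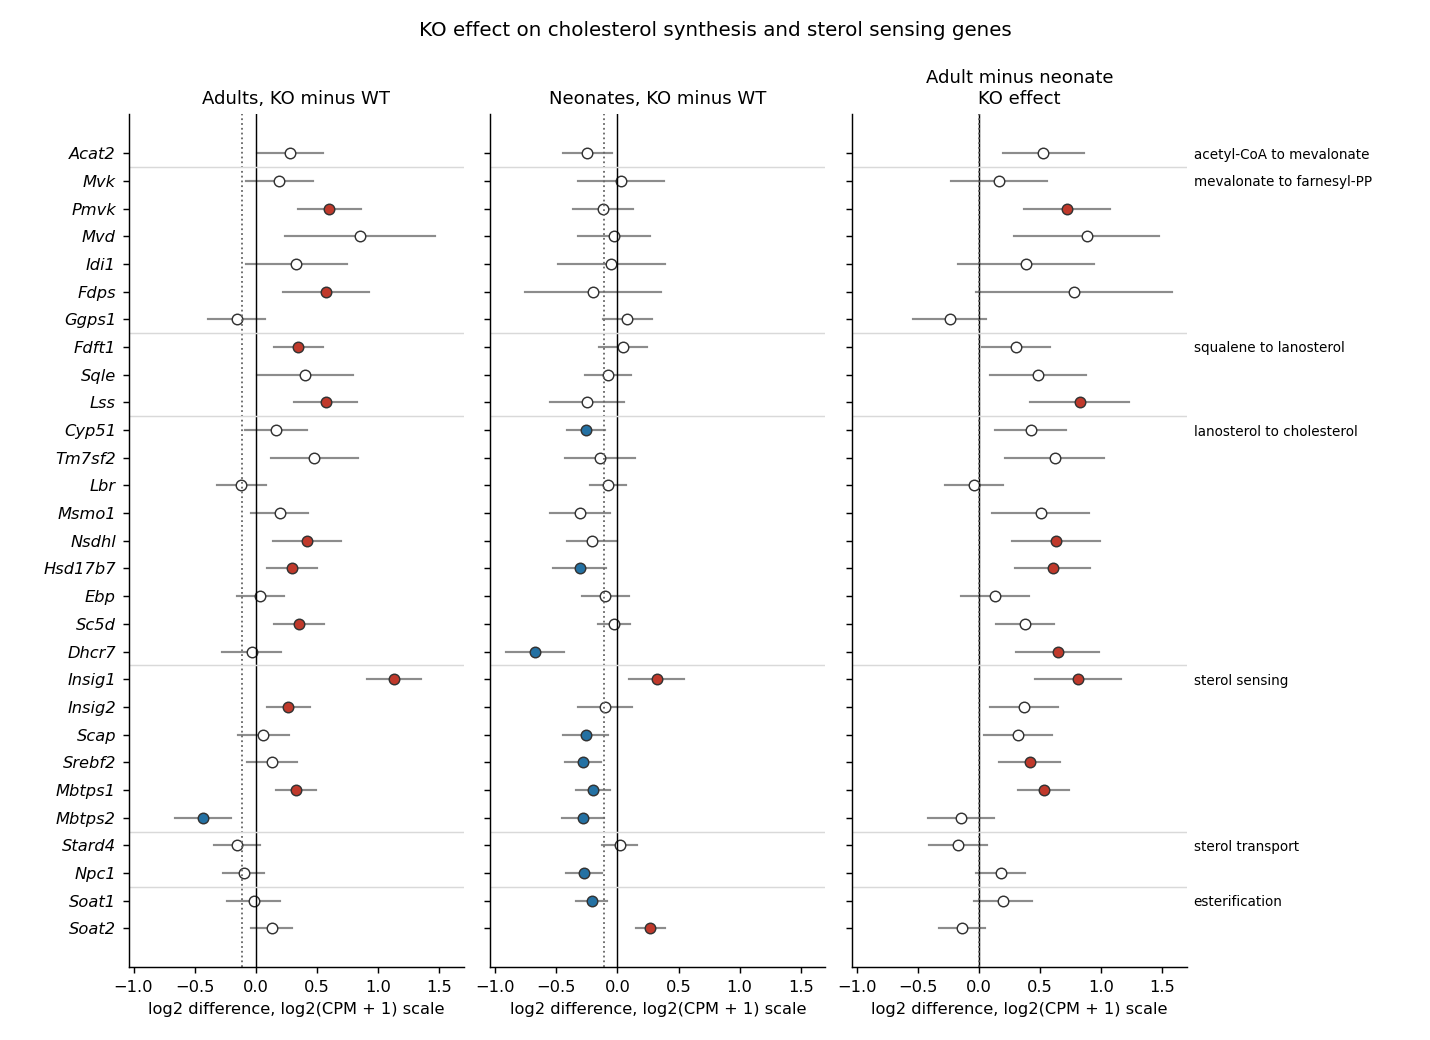
Log2 difference of KO over WT (x axis, log2(CPM + 1) scale) for the 29 tested members in adults (left) and neonates (middle), and the adult effect minus the neonate effect (right), ordered by step from top to bottom. Points are limma estimates and lines their 95% intervals, filled where called (red above 0, blue below 0), and the dotted line is the median of all tested genes; Insig1 in adults, at 1.13, is the largest effect, and Dhcr7 in neonates, at -0.68, the lowest.

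Summed over the members of a step, KO and WT adults separated from mevalonate to lanosterol and among the sensors. The genes from mevalonate to farnesyl pyrophosphate summed to 129.8 ± 16.0 CPM in KO adults and 93.6 ± 11.2 CPM in WT adults (SD, n = 3), a ratio of 1.39 with no overlap between the groups. Those from squalene to lanosterol summed to 198.9 ± 25.5 CPM in KO adults and 148.8 ± 21.8 CPM in WT adults, a ratio of 1.34, again without overlap. The 6 sterol-sensing genes summed to 527.5 ± 33.8 CPM in KO adults and 393.8 ± 27.0 CPM in WT adults, also a ratio of 1.34. From lanosterol to cholesterol the ratio was 1.15, at 901.7 ± 70.1 CPM in KO adults and 785.5 ± 82.7 CPM in WT adults, with groups that overlapped but did not with TMM scaling, where the lowest KO adult had 837.7 CPM and the highest WT adult 797.9 CPM. The sums of acetyl-CoA to mevalonate and of all synthesis enzymes likewise overlapped in adults and did not with TMM scaling. The transport genes summed to 232.4 ± 5.58 CPM in KO adults and 256.5 ± 21.0 CPM in WT adults, a ratio of 0.906 without overlap, but with overlap under TMM scaling. These sums are descriptions with no test, and abundant genes such as Msmo1 weigh most in them. In the sensing sum Insig1 weighs most in the difference, with a mean of 174.2 CPM in KO adults and 79.3 CPM in WT adults. From squalene to lanosterol Sqle does, at 111.5 CPM in KO adults and 84.4 CPM in WT adults, although its own groups overlapped. In neonates all KO sums lay below all WT sums for acetyl-CoA to mevalonate (ratio 0.836), lanosterol to cholesterol (0.883) and sensing (0.925). They lay above for esterification (1.03) and overlapped in the other steps. With TMM scaling lanosterol to cholesterol and sensing overlapped too. All synthesis enzymes summed to 532.9, 535.8 and 489.5 CPM in KO neonates, against 582.2, 579.7 and 565.0 CPM in WT neonates. That log2 ratio of the means of -0.15, without overlap, became -0.04 with overlap once TMM scaling was used.

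**Figure D2:**
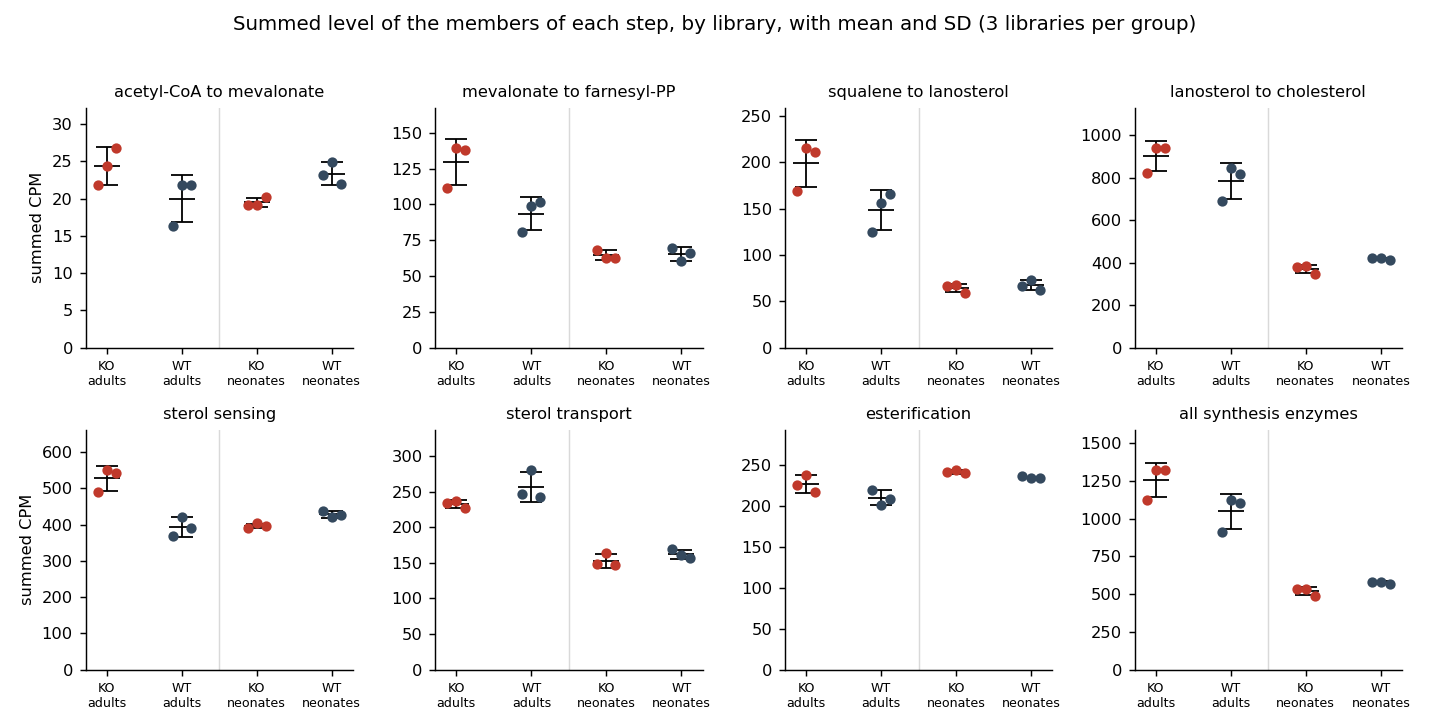
Summed CPM (y axis, from 0) of the members of each step in each library, with KO left of WT within adults and within neonates; points are libraries and bars the mean with SD of 3 libraries. Adult KO and WT sums do not overlap from mevalonate to farnesyl pyrophosphate (ratio 1.39), from squalene to lanosterol (1.34) and for sterol sensing (1.34). Insig1 weighs most in the sensing difference, and neonate sums from mevalonate to lanosterol overlap.

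The pathway begins with Acat2, the cytosolic thiolase that joins acetyl-CoA units, and Hmgcs1, the synthase that makes HMG-CoA from them. Hmgcs1 (Entrez 208715) is listed at 0 in every library of both tables, and its entry lies on the unplaced sequence chr13_random of mm9. All 69 genes that the adult table places on such sequences, and all 66 in the neonate table, are listed at 0 in every library, so the level of Hmgcs1 in this tissue could not be read from these files. Acat2 was not called in either age, with 21.8 to 26.9 CPM in KO adults, 16.3 to 21.8 CPM in WT adults, 19.1 to 20.2 CPM in KO neonates and 21.9 to 24.9 CPM in WT neonates. Its difference between ages was 0.53 (limma adjusted p = 0.056), and its level is uncertain, since only 54.4% of its stretches of 36 bases, the read length, occur once in mm9.

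Of the 6 genes from mevalonate to farnesyl pyrophosphate and its branch, Pmvk and Fdps rose in KO adults. Pmvk, the kinase that adds the later phosphate to mevalonate (chr3:89263040-89272931), stood at 24.7, 28.7 and 26.3 CPM in KO adults, against 14.2, 18.6 and 19.1 CPM in WT adults. All KO adults were above all WT adults, a log2 difference of 0.60 ± 0.12 (SE, limma adjusted p = 0.00436), and the call held in 6 of 6 fits that left out a library. In neonates Pmvk had 15.9, 13.3 and 13.7 CPM in KO, against 15.6, 14.02 and 17.2 CPM in WT, which overlapped (-0.12, limma adjusted p = 0.525). The difference between ages, 0.72 ± 0.17, was called (limma adjusted p = 0.0148) and held in 12 of 12 such fits.

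Fdps, which makes farnesyl pyrophosphate, had 17.4, 27.6 and 25.4 CPM in KO adults, against 13.2, 15.6 and 16.8 CPM in WT adults. The groups did not overlap, although KO adults 1 lay close to the highest WT library, and the difference was 0.58 ± 0.16 (limma adjusted p = 0.03). That call was lost without KO adults 2 or 3 or without WT adults 1 or 2, with limma adjusted p up to 0.123. In neonates Fdps had 8.59, 8.90 and 3.88 CPM in KO, against 9.02, 6.96 and 7.82 CPM in WT, with KO neonates 3, the shallowest library, far below the others. Only 24.2% of the stretches of 36 bases in its transcripts occur once in mm9, and the labels used do not say how reads matching several places were handled, so its level is uncertain. Idi1, the isopentenyl isomerase, has the lowest share, 16.0%, and also the lowest level, 1.26 to 5.90 CPM over all libraries with as few as 9 reads.

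Mvd, the decarboxylase that ends the mevalonate part, had the largest estimate of the step but was not called. It stood at 26.1, 40.3 and 43.6 CPM in KO adults, against 14.6, 22.3 and 22.3 CPM in WT adults, without overlap, a log2 difference of 0.85 with a 95% interval of 0.24 to 1.47 (limma adjusted p = 0.066, and 0.0131 by edgeR). Mvk, the kinase that opens this part, and Ggps1, which leads off to geranylgeranyl groups, overlapped between KO and WT at both ages. Ggps1 stood at 15.7 to 18.6 CPM in KO adults and 17.4 to 19.7 CPM in WT adults.

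Squalene synthase, squalene epoxidase and lanosterol synthase, the genes Fdft1, Sqle and Lss, commit the pathway to sterols. Lss (chr10:75994372-76016679) had 27.5, 34.2 and 37.5 CPM in KO adults, against 19.3, 22.6 and 23.6 CPM in WT adults. Every KO adult exceeded every WT adult, with a log2 difference of 0.57 ± 0.12 (limma adjusted p = 0.00615, called in 6 of 6 fits without a library). In neonates it had 9.98, 11.9 and 7.92 CPM in KO, against 11.1, 13.5 and 11.1 CPM in WT, overlapping at -0.25 (limma adjusted p = 0.238). The difference between ages was 0.82 ± 0.20, the largest among the 8 called members (limma adjusted p = 0.0156), and was lost without KO neonates 3, WT neonates 2 or KO adults 3 (limma adjusted p up to 0.0561).

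Fdft1 had 50.4, 54.4 and 58.2 CPM in KO adults, against 37.9, 45.4 and 44.3 CPM in WT adults. It rose by 0.35 ± 0.09 (limma adjusted p = 0.0207), a call lost without KO adults 2, KO adults 3 or WT adults 1 (limma adjusted p up to 0.104), and 74.7% of its stretches of 36 bases occur once. In neonates it had 29.1, 28.1 and 26.3 CPM in KO, against 26.6, 29.9 and 24.5 CPM in WT, which overlapped. Sqle, often counted as a rate-limiting enzyme of synthesis, had 91.6, 127.4 and 115.6 CPM in KO adults, against 67.1, 87.95 and 98.2 CPM in WT adults. Those groups overlapped, because KO adults 1 lay below WT adults 3, and the difference of 0.40 was not called (95% interval 0.01 to 0.79, limma adjusted p = 0.139). In neonates Sqle had 27.4, 27.8 and 25.1 CPM in KO, against 28.8, 29.4 and 26.6 CPM in WT, a difference of -0.08 that became 0.03 with TMM scaling.

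The 9 genes from lanosterol to cholesterol gave 3 rises in adults, Nsdhl, Hsd17b7 and Sc5d. Nsdhl, the dehydrogenase that helps strip the extra methyl groups (chrX:70163860-70203867), had 46.3, 53.00 and 54.9 CPM in KO adults, against 30.6, 41.1 and 43.7 CPM in WT adults. Its rise of 0.42 ± 0.13 (limma adjusted p = 0.0375) was lost without KO adults 2 or 3 or WT adults 1 or 2 (limma adjusted p up to 0.147). In neonates it had 31.5, 30.4 and 23.9 CPM in KO, against 32.6, 32.6 and 33.6 CPM in WT, where all KO libraries lay below all WT libraries but the difference of -0.21 was not called (limma adjusted p = 0.151). The difference between ages was 0.63 ± 0.17 (limma adjusted p = 0.0372), lost without any of KO neonates 3, WT neonates 1, WT neonates 2, WT neonates 3, KO adults 2, KO adults 3 or WT adults 1 (limma adjusted p up to 0.0999) and by edgeR (edgeR adjusted p = 0.0632).

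Hsd17b7, the reductase that follows (chr1:171879668-171899336), was called in opposite directions at the 2 ages. It had 56.9, 58.3 and 62.4 CPM in KO adults, against 43.2, 54.8 and 46.6 CPM in WT adults, a rise of 0.30 ± 0.10 (limma adjusted p = 0.0454). It had 27.04, 28.8 and 21.4 CPM in KO neonates, against 33.2, 32.8 and 29.7 CPM in WT neonates, where it was lower by limma at -0.31 ± 0.10 (adjusted p = 0.04) and at -0.20 with TMM scaling (adjusted p = 0.178), which ends that call. KO and WT libraries did not overlap at either age. The adult call was lost without KO adults 1, 2 or 3 or WT adults 1 or 3 (limma adjusted p up to 0.17), and the neonate call without KO neonates 3, WT neonates 1 or WT neonates 2 (limma adjusted p up to 0.223). The difference between ages, 0.60 ± 0.15 (limma adjusted p = 0.018), held with TMM scaling (0.0176) and by edgeR (0.024), and was lost without KO neonates 3, WT neonates 1 or KO adults 3 (limma adjusted p up to 0.0566).

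Sc5d, the desaturase near the end of the pathway, had 156.0, 199.8 and 183.8 CPM in KO adults, against 131.7, 149.8 and 138.8 CPM in WT adults. It rose by 0.35 ± 0.10 (limma adjusted p = 0.0215), a call lost without KO adults 2, KO adults 3 or WT adults 1 (limma adjusted p up to 0.1). Its neonate libraries overlapped, at 96.8, 102.2 and 94.8 CPM in KO, against 97.4, 102.7 and 99.01 CPM in WT.

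Dhcr7, the reductase that makes cholesterol from its last precursor in a branch that also supplies vitamin D synthesis, fell in KO neonates and was not called in KO adults. Dhcr7 (chr7:151009072-151034315) had 13.7, 16.2 and 13.5 CPM in KO neonates, against 22.03, 27.2 and 22.03 CPM in WT neonates. Every KO neonate was below every WT neonate, a log2 difference of -0.68 ± 0.11 (limma adjusted p = 0.000231) that stayed at -0.57 with TMM scaling (adjusted p = 0.000667) and was called in 6 of 6 fits without a library. In adults Dhcr7 had 40.02, 47.5 and 49.9 CPM in KO, against 42.1, 44.5 and 54.5 CPM in WT, which overlapped (-0.03, 95% interval -0.28 to 0.21). The difference between ages was 0.64 ± 0.16 (limma adjusted p = 0.0232), but edgeR gave an adjusted p of 0.0564 and the call was lost without KO neonates 1 or 3, WT neonates 2, KO adults 2 or 3, or WT adults 1 or 2 (limma adjusted p up to 0.0732).

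Cyp51, the demethylase that acts on lanosterol, had 46.9, 52.2 and 47.4 CPM in KO neonates, against 59.2, 59.8 and 56.5 CPM in WT neonates, without overlap. It was lower by limma at -0.26 ± 0.07 (adjusted p = 0.016), at -0.15 with TMM scaling (adjusted p = 0.169), which ends the call, and it was lost without KO neonates 1 or 3 or WT neonates 1 or 2 (limma adjusted p up to 0.0603). In adults Cyp51 had 139.7, 175.9 and 158.9 CPM in KO, against 117.7, 152.9 and 153.9 CPM in WT, which overlapped. Of the remaining 4 genes of this step, Tm7sf2 and Lbr, which share a reductase activity, and Msmo1 and Ebp, a methyl oxidase and an isomerase, none was called at either age. Tm7sf2 came closest, at 39.6 to 45.2 CPM in KO adults and 24.8 to 39.9 CPM in WT adults (0.48, limma adjusted p = 0.0641, and 0.049 with TMM scaling). Msmo1 was the most abundant enzyme of the list in adults, at 216.4 to 260.4 CPM in KO adults and 181.7 to 243.2 CPM in WT adults.

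Among the sensors, Insig1 responded at both ages. Insig1 (chr5:28397952-28405202), the SREBP target that retains SCAP, had 156.5, 178.8 and 187.5 CPM in KO adults, against 74.1, 91.9 and 71.8 CPM in WT adults. The lowest KO adult was far above the highest WT adult, and the mean was 2.2-fold higher (log2 difference 1.13 ± 0.10, limma adjusted p = 2.24e-05, called in 6 of 6 fits without a library). In neonates it had 86.3, 91.8 and 72.5 CPM in KO, against 69.96, 57.2 and 73.1 CPM in WT, where KO neonates 3 lay just under WT neonates 3. That rise of 0.32 ± 0.10 (limma adjusted p = 0.0435, and 0.0106 by edgeR) was lost without KO neonates 1 or 2 or WT neonates 1 or 2 (limma adjusted p up to 0.148). The adult effect exceeded the neonate effect by 0.81 ± 0.17 (limma adjusted p = 0.00951), in 12 of 12 fits without a library. Only 57.3% of its stretches of 36 bases occur once in mm9.

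Insig2, the other retention protein, had 84.5, 86.8 and 77.6 CPM in KO adults, against 63.9, 72.95 and 69.4 CPM in WT adults. The groups did not overlap and the rise was 0.27 ± 0.08 (limma adjusted p = 0.0383), lost without KO adults 1, 2 or 3 or WT adults 1 or 3 (limma adjusted p up to 0.138). In neonates it had 77.2, 80.7 and 98.5 CPM in KO, against 103.8, 87.8 and 83.4 CPM in WT, which overlapped, at -0.10 and at 0.01 with TMM scaling. In RPKM, which corrects for transcript length, the ratio of Insig1 to Insig2 was 1.89 to 2.46 in KO adults and 1.05 to 1.28 in WT adults. It was 0.677 to 1.04 in KO neonates and 0.598 to 0.805 in WT neonates. By these values Insig1 was the more abundant of the pair in all adult libraries and the less abundant in all 3 WT neonates. That order is uncertain, since 57.3% of the 36-base stretches of Insig1 occur once in mm9, against 100% of those of Insig2. The exon model of Insig2 also differs between the tables, so the ratios cannot be compared across ages.

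The sensor complex itself moved less. Srebf2 (chr15:81977699-82035390), which encodes SREBP-2, had 129.4, 159.0 and 148.8 CPM in KO adults, against 120.6, 143.0 and 134.0 CPM in WT adults, overlapping at 0.13 (95% interval -0.07 to 0.34, limma adjusted p = 0.337). It had 67.3, 76.1 and 64.8 CPM in KO neonates, against 80.97, 86.2 and 85.8 CPM in WT neonates, lower at -0.28 ± 0.07 (limma adjusted p = 0.0079) but not called with TMM scaling (-0.17, adjusted p = 0.103). Its difference between ages of 0.41 ± 0.12 was called at a limma adjusted p of 0.0458, missed the threshold with TMM scaling (0.0665) and by edgeR (0.0815), and was lost without KO neonates 1 or 3, any WT neonate, KO adults 2 or 3, or WT adults 1 (limma adjusted p up to 0.13).

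Scap, the escort, had 28.6, 34.9 and 34.6 CPM in KO adults, against 31.01, 30.6 and 31.9 CPM in WT adults, which overlapped. It had 31.97, 33.8 and 29.00 CPM in KO neonates, against 40.1, 39.5 and 34.6 CPM in WT neonates, with no overlap and a difference of -0.26 ± 0.09 (limma adjusted p = 0.0426). That call ended with TMM scaling (-0.15, adjusted p = 0.24) and without KO neonates 1 or 3 or WT neonates 1 or 2 (limma adjusted p up to 0.172).

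The proteases that release SREBPs went apart in KO adults. Mbtps1 (chr8:122032052-122082661), which makes the initial cut, had 73.5, 76.5 and 78.6 CPM in KO adults, against 59.05, 59.7 and 62.8 CPM in WT adults. It rose by 0.33 ± 0.08 with no overlap (limma adjusted p = 0.0104), and the call was lost only without KO adults 3 (limma adjusted p = 0.0539). Mbtps2 (chrX:153985754-154036647), which makes the cut within the membrane, had 16.3, 15.1 and 15.6 CPM in KO adults, against 19.3, 23.5 and 21.8 CPM in WT adults. It fell by 0.43 on the log2 scale (SE 0.11, limma adjusted p = 0.013), a call kept with TMM scaling (adjusted p = 0.0424) and lost without KO adults 3 or WT adults 2 (limma adjusted p up to 0.0583) and in DESeq2. Within each library the ratio of Mbtps1 to Mbtps2 RPKM, which does not depend on scaling between libraries, was 4.97 to 5.58 in KO adults and 2.80 to 3.37 in WT adults.

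In neonates both proteases were called lower in KO by limma only where TMM scaling was left out. Mbtps1 had 92.00, 84.3 and 96.95 CPM in KO neonates, against 103.1, 102.9 and 107.9 CPM in WT neonates, at -0.20 ± 0.07 (limma adjusted p = 0.0356, and 0.436 with TMM scaling, which ends the call). Without KO neonates 1 or 2 or any WT neonate the limma call was also lost (adjusted p up to 0.157). Mbtps2 had 35.1, 36.2 and 33.7 CPM in KO neonates, against 40.1, 46.7 and 42.04 CPM in WT neonates, at -0.28 ± 0.08 (limma adjusted p = 0.0181, and 0.138 with TMM scaling). That call was lost without KO neonates 3 or WT neonates 2 (limma adjusted p up to 0.109). The ratio of the pair per length overlapped, at 2.56 to 3.16 in KO neonates and 2.43 to 2.83 in WT neonates. For Mbtps1 the difference between ages was 0.53 ± 0.10 (limma adjusted p = 0.00232), called in 12 of 12 fits without a library, and for Mbtps2 it was -0.15 (95% interval -0.42 to 0.13).

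**Figure D3:**
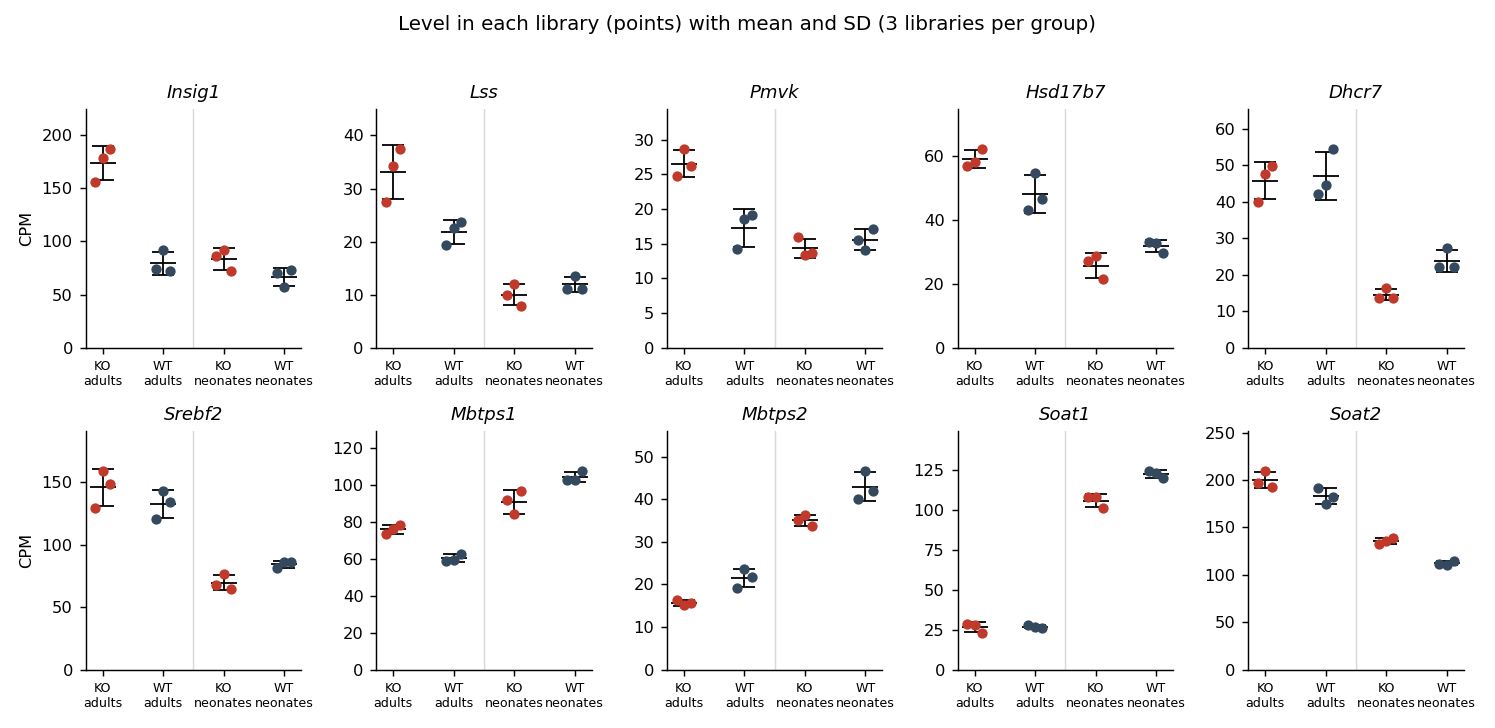
CPM (y axis, from 0) of 10 members in each library, with KO left of WT within adults and within neonates; points are libraries and bars the mean with SD of 3 libraries. Insig1 separates KO from WT most in adults, Dhcr7 in neonates, Mbtps1 and Mbtps2 go apart in adults, and Soat2 and Soat1, with Soat1 not called with TMM scaling, go apart in neonates.

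Esterification stores cholesterol as esters, by Soat2 in enterocytes for packing into chylomicrons and by Soat1 in most other cells, macrophages among them. Soat2 (chr15:101981006-101993867) had 132.4, 136.0 and 138.4 CPM in KO neonates, against 111.3, 110.9 and 114.6 CPM in WT neonates. The groups were far apart for their spread, and the rise of 0.27 ± 0.06 was called (limma adjusted p = 0.00218) in 6 of 6 fits without a library. Soat1 (chr1:158358239-158404459) had 108.2, 108.0 and 101.2 CPM in KO neonates, against 124.4, 123.2 and 119.7 CPM in WT neonates, without overlap. It was lower by limma at -0.21 ± 0.06 (adjusted p = 0.0165), at -0.10 with TMM scaling (adjusted p = 0.279), which ends the call, and it was lost without KO neonates 3, WT neonates 1 or WT neonates 2 (limma adjusted p up to 0.0737).

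Per length, the ratio of Soat2 to Soat1 RPKM within a library was 2.77 to 3.09 in KO neonates and 2.02 to 2.16 in WT neonates. Enterocyte markers stood higher and myeloid markers lower in the same KO neonates, as given above, and their part in this ratio was not tested. In adults Soat2 had 197.1, 209.8 and 193.2 CPM in KO, against 191.5, 174.6 and 182.2 CPM in WT, without overlap but not called (0.13, limma adjusted p = 0.254). Soat1 had 28.8, 27.9 and 23.2 CPM in KO adults, against 27.9, 26.7 and 25.98 CPM in WT adults, at -0.02 and at 0.09 with TMM scaling. Neither gene was called for the difference between ages, with 95% intervals of -0.33 to 0.05 for Soat2 and -0.04 to 0.43 for Soat1.

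For sterol transport inside the cell, Npc1, which exports cholesterol from lysosomes, had 50.3, 50.8 and 48.05 CPM in KO neonates, against 62.1, 60.4 and 58.6 CPM in WT neonates. It was lower at -0.28 ± 0.07 (limma adjusted p = 0.0078) in 6 of 6 fits without a library, but at -0.17 with TMM scaling (adjusted p = 0.101), which ends the call. In adults Npc1 had 71.8, 68.3 and 73.96 CPM in KO, against 75.7, 79.2 and 74.5 CPM in WT, not called (-0.10, and 0.01 with TMM scaling). Stard4, a cytosolic sterol carrier, stood at 152.2 to 168.6 CPM in KO adults, 167.9 to 201.4 CPM in WT adults, 97.6 to 113.4 CPM in KO neonates and 97.8 to 107.2 CPM in WT neonates, and was called in neither comparison.

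Most of the pathway was more abundant in WT adults than in WT neonates, a comparison given without a test, since each age has its own scaled table and the effect of age cannot be told apart from that of the table. All WT adults lay above all WT neonates for 19 of 29 members, below for 7, and the groups overlapped for 3, where WT adults lay above for 23.3% and below for 50.9% of the 14588 genes tested for a difference between ages. The largest ratios of WT adults to WT neonates were for Mvk, with a mean of 18.4 CPM in WT adults and 3.84 CPM in WT neonates (4.79-fold), and Msmo1, with 210.7 CPM in WT adults and 56.9 CPM in WT neonates (3.70-fold). Tm7sf2, with 30.6 CPM in WT adults and 9.61 CPM in WT neonates (3.18-fold), and Sqle, with 84.4 CPM in WT adults and 28.3 CPM in WT neonates (2.98-fold), came next. Soat1 went furthest the other way, with 26.9 CPM in WT adults and 122.5 CPM in WT neonates (0.220-fold). Both proteases were also less abundant in WT adults, Mbtps1 with 60.5 CPM in WT adults and 104.6 CPM in WT neonates, and Mbtps2 with 21.5 CPM in WT adults and 42.9 CPM in WT neonates. Ggps1, Insig2, Scap and Acat2 completed the 7. The exon models of Scap and Insig2 differ between the tables, so their ratios across ages are uncertain.

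**Figure D4:**
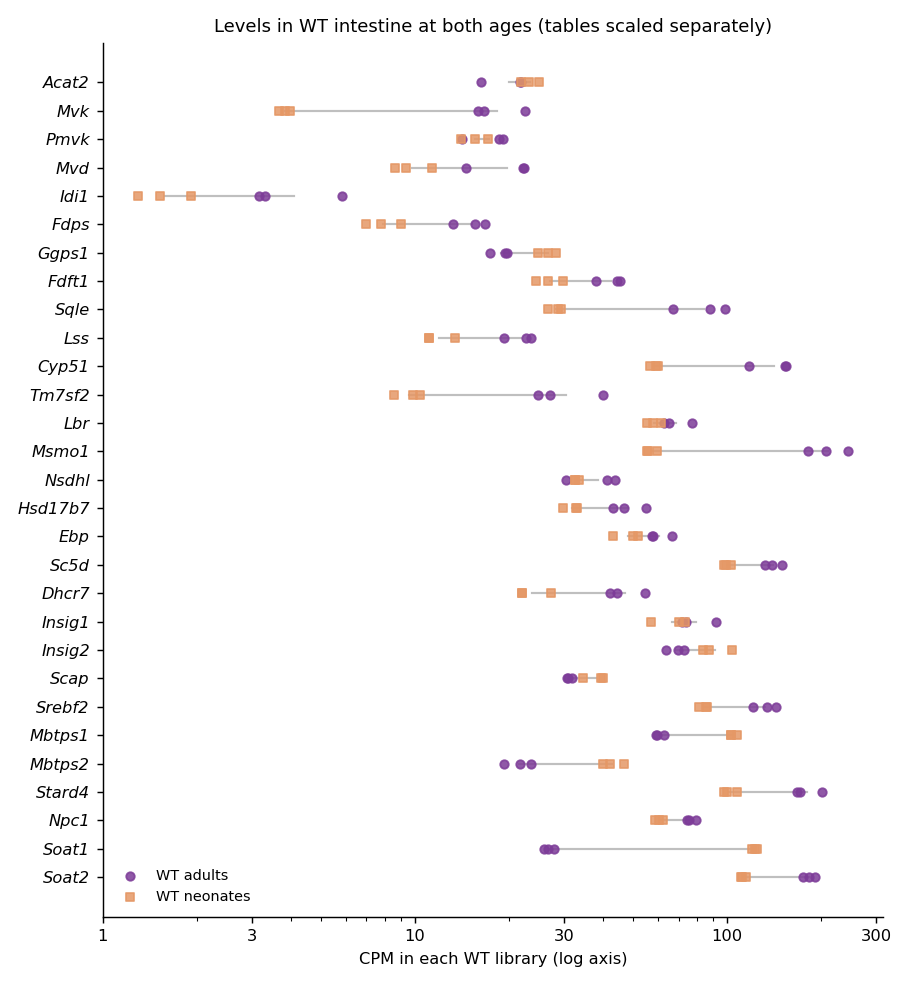
CPM (x axis, log scale) of the 29 members in each WT adult library (circles) and each WT neonate library (squares), ordered by step from top to bottom, with a grey line joining the means. In 19 of 29 members all WT adults lie to the right of all WT neonates, while Soat1, Mbtps1 and Mbtps2 are among the 7 that lie to the left.

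A list of 15 other genes of sterol balance was set beside the members. Of these, limma called 0 higher and 3 lower in KO adults, with 6 at an unadjusted p under 0.05. In KO neonates it called 1 higher and 1 lower, and 0 higher and 1 lower for the difference between ages, where 8 had an unadjusted p under 0.05. With TMM scaling the splits were 2 and 2 in adults, 4 and 1 in neonates, and 0 and 1 for the difference. By edgeR they were 2 and 2 in adults, 3 and 1 in neonates, and 0 and 1 for the difference. Over all tested genes limma called 5.5% higher and 13.9% lower in adults, 5.21% and 16.0% in neonates, and 3.02% and 2.44% for the difference. With TMM scaling those shares were 9.28% and 6.77%, 9.43% and 7.21%, and 2.48% and 2.6%.

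Erlin1, which binds cholesterol in the endoplasmic reticulum, moved in opposite directions at the 2 ages. It had 96.1, 84.4 and 89.8 CPM in KO adults, against 146.4, 156.4 and 139.9 CPM in WT adults, and 110.7, 102.4 and 106.2 CPM in KO neonates, against 83.4, 74.3 and 74.4 CPM in WT neonates. It fell in KO adults (-0.71, limma adjusted p = 0.000115) and rose in KO neonates (0.46, limma adjusted p = 5.49e-05), with no overlap at either age and a difference between ages of -1.16 (limma adjusted p = 1.64e-06).

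Mylip, an LXR target that encodes a ubiquitin ligase, fell in KO adults at -0.57 (limma adjusted p = 0.00653) and was not called in neonates (-0.18). Acat1, the mitochondrial thiolase of ketone body metabolism, was lower in KO adults at -0.29 (limma adjusted p = 0.0316, and 0.147 with TMM scaling, which ends the call) and was not called in neonates (0.03). Npc2, the lysosomal partner of Npc1, was lower in KO neonates at -0.35 (limma adjusted p = 0.000623) and not called in KO adults at -0.12. The gene for SREBP-1, which favours fatty acid synthesis and is an LXR target, rose at both ages. Srebf1 had a log2 difference of 2.10 in adults (limma adjusted p = 1.08e-07) and 1.57 in neonates (limma adjusted p = 2.91e-13). Of 15 genes of SREBP-1 and fatty acid synthesis, limma called 7 higher and 0 lower among 15 tested in KO adults (10 higher and 0 lower with TMM scaling) and 8 higher and 1 lower among 14 tested in KO neonates (8 and 0 with TMM scaling). Over all tested genes the shares were 5.5% higher and 13.9% lower in KO adults and 5.21% higher and 16.0% lower in KO neonates. Of 10 LXR targets and receptors, it called 6 higher and 2 lower in KO adults and 5 higher and 1 lower in KO neonates, and Srebf1 and Mylip count in more than 1 of these lists.

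The authors' deposited table has its own test, read here with the sign turned to KO minus WT. At a false discovery rate under 0.05, the authors' deposited table held 13 of the 30 members higher and 0 lower in KO adults, and 2 higher and 1 lower in KO neonates. Over all its genes, the authors' deposited table held 4.2% higher and 2.82% lower in KO adults, and 4.38% higher and 3.55% lower in KO neonates. These shares are over all 23954 adult and 23333 neonate genes with no filter on low values, so genes at 0 in every library lower them. They are not on the same base as the shares of tested genes given above.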

How the data were processed

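Small intestine RNA of 12 libraries was sequenced for 36 cycles after stranded mRNA preparation, per the labels' protocols, and aligned with Bowtie 0.12.2 to mouse build mm9, per the submitters' processing notes. The authors deposited 1 gene table per age, in which the columns called reads hold a library-scaled signal with equal sums, made with HOMER per the file headers. RPKM values were also deposited by the authors, as were their own log2 fold change and adjusted p-value for each gene, from a test not named in the headers.

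Here the signal was divided by each library's sum and expressed as CPM. A gene was tested if 3 or more libraries reached 1 CPM, on log2(CPM + 1) with limma 3.58.1 in R 4.3.3 (trended, robust), adjusted by Benjamini-Hochberg over all tested genes and called under 0.05. KO was compared with WT within each age, and the adult effect minus the neonate effect was fitted over all 12 libraries. Whole reads could be recovered in every library (100% of values within 0.01 deposited units), and edgeR 4.0.16 and DESeq2 1.42.0 were run on them as alternatives, since the deposited values are not counts. The limma fit without TMM scaling and the edgeR fit were run on simulated reads with known changes, balanced up and down, and 1 fixed spread. That simulation held no shift of the transcriptome as a whole, so it cannot decide between the scalings. Each library is a pool of 2 mice, so p-values measure the variation of pools. Promoters were read from the mm9 genome at the tables' coordinates, and the uniqueness of member transcripts from GENCODE transcripts and that genome. The members and lists were chosen with earlier results of these data known. Genes named with values in every library are those called in any comparison and 8 fixed members (Srebf2, Scap, Insig1, Insig2, Hmgcs1, Sqle, Soat1 and Soat2), and of the other lists up to 4 called genes per comparison with the lowest adjusted p. Some genes of the other lists are not reported here. Of the SREBP-1 and LXR lists, counts and Srebf1 are given, and other genes only where they differed between ages.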

Additional observations from a re-analysis of the deposited data

Results flagged for a closer look

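The KO effect differed between ages for 8 members by limma, each with the signed effect higher in adults than in neonates. On the log2 scale the adult effect minus the neonate effect was 0.72 for Pmvk, 0.82 for Lss, 0.63 for Nsdhl, 0.60 for Hsd17b7, 0.64 for Dhcr7, 0.81 for Insig1, 0.41 for Srebf2 and 0.53 for Mbtps1. For Dhcr7 and Srebf2 the adult KO and WT libraries overlapped and the neonate libraries did not.

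Among the other sterol genes the same difference was -1.16 for Erlin1, which rose in KO neonates and fell in KO adults. In the lists of SREBP-1 and LXR genes it was 0.53 for Srebf1, 0.96 for Acacb, 1.06 for Scd2 and 0.48 for Elovl6, which were higher in KO at both ages and more so in adults, and -0.37 for Abcg5, which was higher in KO at both ages and less so in adults. It was -1.16 for Pnpla3, a lipase of lipid droplets, which was higher in KO neonates by 1.21 and not called in KO adults at 0.04 (limma adjusted p of the difference 0.0186, and up to 0.0578 without 1 library, where 9 of 12 fits called it). For Ncor1 it was 0.39, since its RNA was lower by 0.58 on the log2 scale in KO adults and by 0.97 in KO neonates.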

How the results depend on the processing

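The count of called members was 11 in adults and ranged from 3 to 11 without 1 library, was 11 in neonates and ranged from 4 to 10, and was 8 for the difference between ages and ranged from 3 to 13. In neonates it was 3 with TMM scaling, edgeR or DESeq2 and 6 in 1 fit of all 12 libraries. For the difference it was 5 with edgeR or with no filter on low values and 15 on the deposited RPKM. On RPKM all tested genes shifted too, with a median difference of 0.168 and 705 genes called higher and 102 lower. The main fit called 440 higher and 356 lower, edgeR 301 and 272, and DESeq2 367 and 383. The values do not settle whether the replicate numbers pair the samples. Same-numbered KO and WT libraries correlated at 0.16, 0.139 and 0.0286 in neonates and 0.0616, -0.212 and -0.121 in adults. In neonates each KO library correlated best with its own number, though WT neonates 3 correlated best with KO neonates 2 (0.0422). In adults no KO library correlated best with its own number. A fit with the replicate number as a block gave 12 called members in adults, 11 in neonates and 14 for the difference.

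Log2 ratios of summed levels with TMM scaling were -0.145 for acetyl-CoA to mevalonate, -0.0688 for lanosterol to cholesterol, -0.0375 for all synthesis enzymes, -0.00159 for sensing, 0.0271 for transport and 0.152 for esterification in neonates, and 0.224 for esterification in adults. On RPKM they were 0.226 for esterification and 0.616 for sensing in adults and 0.0633 for esterification in neonates. Of uncalled members, Insig2 in neonates was above 0 with TMM scaling (0.00858), edgeR (0.00569) and DESeq2 (0.00768), and Sqle in neonates likewise (0.0302, 0.0347 and 0.0335). Soat1 in adults was 0.0904 with TMM scaling, 0.0986 with edgeR, 0.0987 with DESeq2 and 0.088 on RPKM, and ranged from -0.0753 without KO adults 1 to 0.0764 without KO adults 3, with 0.00989 without WT adults 1. The Soat2 difference between ages was 0.0389 on RPKM. The causes were not tested. Over all genes, calls in neonates were 3009, or 1585 with DESeq2. In adults they were 2611, or 1146 on RPKM and 1605, 1281 and 1483 without KO adults 2, KO adults 3 or WT adults 2. For the difference they were 796, or 517 without WT neonates 2 and 529 without KO adults 3. In a tally of part of the members and comparisons, 579 alternative values kept direction and side of the threshold. There 134 dropped below it, 11 passed it and 13 changed sign, the last for Insig2, Soat1, Soat2 and Sqle. Other members changed sign as well. In neonates 6 of 29 members stood above 0 in the main fit and 13 with TMM scaling or edgeR. In adults 22 did in the main fit and 25 with TMM scaling or edgeR. Depth limits Idi1 most, with 9 to 77 reads.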
